A study of Mus musculus with 4 samples.

Results

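Expressed mouse zinc finger genes with a numbered Zfp symbol were compared between 2 states of Notch signaling in Beko cells, a mouse progenitor T-cell line whose Notch pathway is constitutively active. A gene was included if its symbol was Zfp followed only by digits and its raw count was at least 20 in each of the 4 RNA-seq libraries. Of 337 such symbols among the 24391 genes of the count table, 244 met this floor. The members were therefore selected on their counts, and their levels are given as a description. GSI libraries (2 replicates) came from cells kept for 48 h in the γ-secretase inhibitor DAPT, which blocks the cleavage that frees the Notch intracellular domain. Washout libraries (2 replicates) came from cells given the same 48 h treatment, then washed and grown for 24 h without inhibitor. The labels give the DAPT dose as 10 mg/ml, whereas the study's methods give it in μg/ml. All 4 libraries are from the same cell line and carry the same inhibitor pretreatment. The comparison holds neither an untreated nor a mock-washed library, so inhibitor removal cannot be told apart from washing and the added day of culture.

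Most proteins of this family bind DNA through tandem C2H2 zinc fingers, in which 2 cysteines and 2 histidines hold a zinc ion. Many also carry a KRAB domain, which recruits the corepressor Trim28, and Trim28 in turn brings in the histone methyltransferase Setdb1 and other chromatin silencers. KRAB zinc finger proteins are best known for silencing retroelements and for protecting imprinted loci, and their genes lie in clusters that arose by duplication. The symbol Zfp is older than this division, so it also covers C2H2 regulators without a KRAB domain and RNA-binding proteins with other finger types. In T-cell progenitors, Notch signaling sustains proliferation and commitment to the T lineage.

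The libraries held 13716199 to 36364200 counts, and replicate 1 was the deeper library in both conditions. The 4 libraries had counts for all 12 progenitor T-cell markers examined, whose summed level was 6380 and 6980 CPM (counts scaled to a common library size) in GSI and 7250 CPM in both washout libraries. Within this sum single markers moved in both directions. Ptcra rose from 47.1 and 54.4 CPM to 249 and 276 CPM, and Notch1 from 506 and 636 to 1180 and 1330 CPM. Gata3 fell from 262 and 208 CPM to 75.8 and 71.7 CPM, and Tcf7 from 1060 and 1010 to 581 and 555 CPM. B-cell markers summed to less than 1 CPM in every library, with Pax5, Ebf1 and Ms4a1 at 0. Mast cell markers summed to 274 and 167 CPM under GSI, then 45.7 and 30.5 CPM after washout, carried by Kit and Cpa3, while Fcer1a, Mcpt4 and Tpsb2 were at 0. Myeloid markers, mainly Itgam, summed to 49.1 and 38.2 CPM under GSI, then 5.49 and 4.91 CPM after washout, with Lyz2, Elane and Cebpa at 0. Erythroid markers summed to 23.8 and 21.5 CPM in GSI and to 11.3 and 10.8 CPM in washout, with Hbb-b1 and Hba-a1 at 0. Stromal or epithelial markers ranged from 28.2 to 48.2 CPM, with Krt8 at 0. The part of these marker changes in the Zfp results was not tested.

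As a group, the expressed Zfp genes changed little after washout in TMM-scaled CPM. Their summed level was 10480 and 10700 CPM in the GSI libraries and 10330 and 9889 CPM in the washout libraries, and their median level lay between 22.7 and 25 CPM in all 4. This depends on the scaling, whose TMM factors were 1.08 and 1.06 in GSI and 0.936 and 0.93 in washout. As a share of all counts, the members fell from 1.13% and 1.14% in GSI to 0.967% and 0.92% in washout. Differences between conditions were fitted over all 12266 genes that passed the expression filter by the quasi-likelihood method of edgeR, and each adjusted p is the Benjamini-Hochberg value over all of them. A log2 fold change (log2FC) above 0 denotes a higher level in washout. Past both thresholds, |log2FC| above 1 and adjusted p under 0.05, were 2 members that were higher and 7 that were lower in washout. Among all genes tested, 7.74% were higher and 11.7% lower by the same rule. Among the 10637 genes that met the same count floor, 8.07% were higher and 8.24% lower, against 0.82% and 2.87% of the members. The 9 members past both thresholds were 3.69% of the family, below the 16.3% of genes with the same floor.

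By adjusted p alone, 26 members were higher (10.7%) and 48 lower (19.7%). The background by this rule was 27.0% higher and 25.4% lower over all genes tested, and 30.3% higher and 24.0% lower over genes with the same floor. The gap to the background was also present among genes of similar level. Genes inside the members' interquartile range of average level, 3.67 to 5.54 log2 CPM, passed adjusted p in 54.1% of cases and both thresholds in 15.4%. Of the 122 members in that range, 34.4% and 3.28% did so. The median standard error of the log2FC was 0.14 for the members and 0.13 for genes with the same floor.

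The members also spread less. Their middle 90% ran from a log2FC of -0.82 to 0.59, whereas that of genes with the same floor ran from -1.29 to 1.19. A log2FC within 0.5 of 0 was found for 184 members (75.4%) and for 53.0% of genes with the floor. The members' median was -0.13, with 97 above and 147 below 0. The median was -0.01 over all genes tested and 0.05 over those with the floor. Under every scaling, filter and left-out library examined, the members' median lay 0.16 to 0.21 below that of genes with the floor. Scaling by total count instead of TMM moved the median of all genes to -0.21 and that of the members to -0.33. Members passing adjusted p were higher in 35.1% of cases under TMM and in 11.8% under total count.

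**Figure D1:**
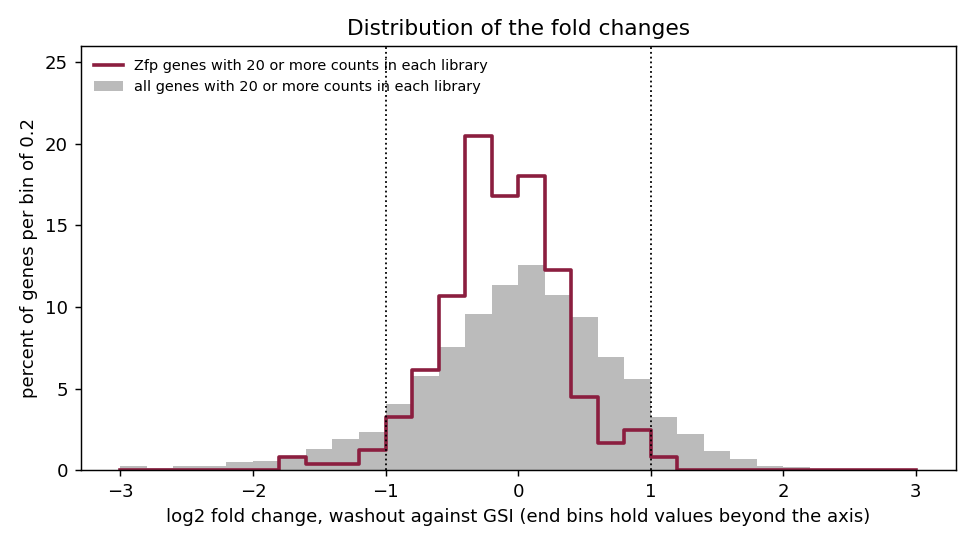
Histogram of log2FC, washout over GSI, for the 244 expressed Zfp genes (dark red line) and for all 10637 genes with 20 or more counts in each library (grey bars), as percent of genes per bin of 0.2. Dotted lines mark a log2FC of -1 and 1; the Zfp genes cluster more closely around 0, and 75.4% of them lie within 0.5 of it against 53.0% of the other distribution.

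The 2 members past both thresholds in the upward direction were Zfp239 and Zfp367. Zfp239 (mm9 chr6:117812118-117822784), also known as Mok2 and able to bind both DNA and RNA, had 5.72 and 5.41 CPM in the GSI libraries and 13.0 and 11.6 CPM in the washout libraries. Both washout values lay above both GSI values, at a log2FC of 1.14 ± 0.18 (SE) and an adjusted p of 0.00275. Such separation of the conditions was common with 2 libraries each. Of the 10637 genes with the count floor, 4469 were wholly higher and 3863 wholly lower in washout. Of the 244 members, 52 and 109 were so. Zfp367 (chr13:64234330-64254510), a C2H2 transcription factor, had 36.3 and 46.3 CPM under GSI, then 89.1 and 77.4 CPM after washout. It too showed no overlap between conditions, and its log2FC of 1.02 ± 0.15 (adjusted p = 0.00205) only just passed the fold threshold. Its log2FC was 0.82 with total counts as the scale, 0.94 with GC content and exon length corrected for, 0.84 without GSI replicate 1 and 0.92 without washout replicate 1, all below that threshold. Under total-count scaling Zfp239 also fell short of it, at 0.94.

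Zfp36 had the lowest log2FC of the family, -1.69 ± 0.49 (adjusted p = 0.0284). Zfp36 (chr7:29161803-29164274) encodes tristetraprolin, which binds AU-rich elements in mRNAs through CCCH fingers and promotes their decay. Its level was 29.1 and 11.1 CPM under GSI, then 8.02 and 4.17 CPM after washout. The conditions did not overlap, but the GSI replicates lay 1.39 log2 units apart, the widest replicate gap of any member. DESeq2 gave an adjusted p of 0.0674 for it. Without GSI replicate 1 its log2FC was -0.83 with an adjusted p of 0.137.

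Zfp174 (chr16:3847268-3858880), a SCAN-domain C2H2 protein, had 5.72 and 6.51 CPM under GSI, then 1.82 and 2.16 CPM after washout. With close replicates in both conditions, its log2FC was -1.63 ± 0.25 (adjusted p = 0.00272), a 3.1-fold lower level after washout. Zfp516 (chr18:83080271-83174706), known for activating the brown fat gene program, had 22.1 and 15.5 CPM under GSI, then 8.37 and 5.66 CPM after washout. Its log2FC was -1.40 ± 0.26 (adjusted p = 0.00536), and the lower GSI value lay above both washout values. These 2 genes, with Zfp36 and Zfp239, passed both thresholds with and without the GC and length correction.

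The remaining 4 genes that were lower past both thresholds had a GC content of 57.2% to 60.8% over their exons. Zfp316 (chr5:144011376-144031701), the single KRAB gene of the 9, had 16.1 and 12.6 CPM under GSI, then 6.17 and 6.1 CPM after washout. Its log2FC was -1.23 ± 0.19 (adjusted p = 0.00278). Zfp513 (chr5:31501354-31504676), whose human counterpart is linked to retinal dystrophy, had 20.6 and 24.1 CPM under GSI, then 9.96 and 10.4 CPM after washout, a log2FC of -1.13 ± 0.15 (adjusted p = 0.00153). Both genes showed well separated conditions. Zfp579 (chr7:4935085-4947760) had 17.6 and 16.4 CPM under GSI, then 7.32 and 8.78 CPM after washout, at a log2FC of -1.10 ± 0.17 (adjusted p = 0.00258). Zfp821 (chr8:112229449-112248832) had 26.4 and 29.0 CPM under GSI, then 13.2 and 14.1 CPM after washout, at a log2FC of -1.02 ± 0.13 (adjusted p = 0.00134). None of these ranges overlapped. After the GC and length correction the log2FC was -0.73 for Zfp316, -0.80 for Zfp513, -0.79 for Zfp579 and -0.76 for Zfp821. All 4 then still passed adjusted p, between 0.00195 and 0.0205, but not the fold threshold. With that correction 10 of 236 members passed both thresholds, 4 of them among the 9 described here. Zfp579 was also below it without washout replicate 1, at -0.95, and Zfp821 without GSI replicate 2 or washout replicate 1, at -0.94 and -0.96.

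**Figure D2:**
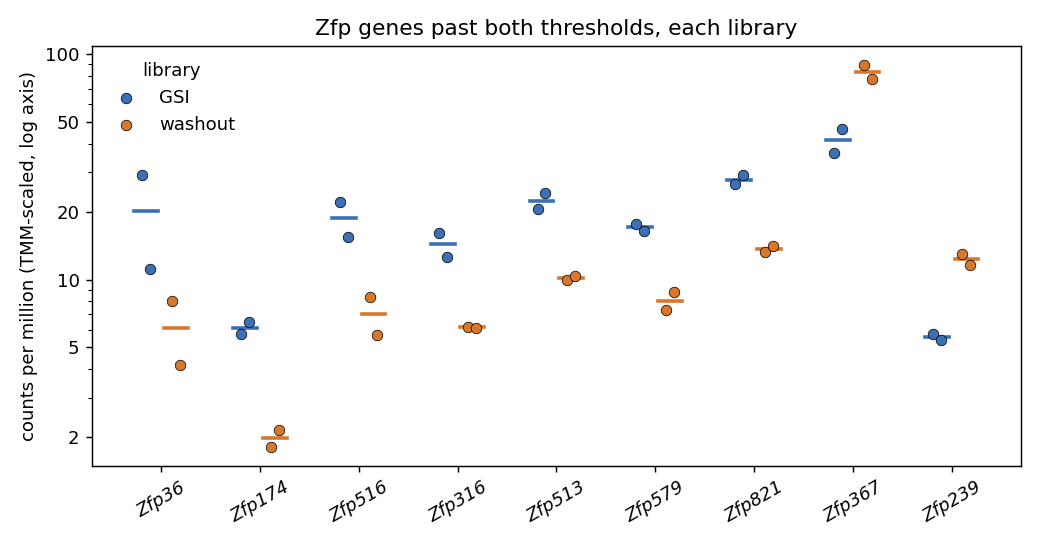
Level in CPM (TMM-scaled, log axis) of the 9 Zfp genes past both thresholds in each library, with 2 GSI points (blue) and 2 washout points (orange) per gene and a bar at their mean. GSI and washout points do not overlap for any of the 9, and Zfp36 has the widest gap between replicates, 29.1 against 11.1 CPM in GSI. Of the 10637 genes with 20 or more counts in each library, 4469 were wholly higher and 3863 wholly lower in washout.

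Promoters were searched for TGGGAA, the core letters of the sequence that RBPJ, the DNA-binding factor of the Notch pathway, recognises. RefSeq windows of 250 bases before to 50 bases after the start (build GRCm38.p6) were matched by symbol for 203 of the 244 members, with 251 windows in all. TGGGAA or its reverse complement was found in 31.5% of these windows and in 25.6% of the 32851 windows of all genes. None of the 13 windows of 8 of the 9 genes past both thresholds held these letters, and some of those windows overlap. At least 1 window held them for 5 of 22 matched members that were higher by adjusted p, 11 of 39 that were lower (28.2%) and 53 of 142 that did not pass. By gene, the share was 34% of matched members and 28.3% of all genes with a window. A match describes the letters in the window and not a bound site. In the paper, RBPJ sites that lost binding under GSI lay mostly away from start sites. Their motif was TGRGAA, where R is A or G. Sequence outside the windows and the form with A were not searched, and RBPJ control of these genes was not tested. For orientation, matches are given here with the motif in capitals, 5′ to 3′ on the strand of the gene, for the genes named in the text that passed adjusted p. Zfp148 held 2 of them, at chr16:33380541-33380566 and chr16:33380736-33380761. The others lie at chr5:106696652-106696677 for Zfp644, chr9:22307835-22307860 for Zfp810, chr7:28014211-28014236 for Zfp850, chr7:30090564-30090589 for Zfp566 and chr7:29815957-29815982 for Zfp790.
Zfp148, first: ctcagtggctTTCCCAgctcccatca
Zfp148, second: tgtgcgatgcTTCCCAtaatgcaccg
Zfp644: gcctgcgccgTGGGAAccgaggccgg
Zfp810: ttttaaacggTGGGAAtaaagttggc
Zfp850: ccccccaccgTGGGAActcccacaag
Zfp566: ctgactacatTTCCCAgagggctccc
Zfp790: cgaggtattcTGGGAAatgtagttca
Zfp148, Zfp644, Zfp810 and Zfp790 were lower in washout by adjusted p, with log2FC values of -0.47, -0.54, -0.71 and -0.50. Zfp850 and Zfp566 were higher, at 0.93 and 0.76, so genes with a match moved in both directions.

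The family was next divided by domain. A KRAB A-box was found in the translated GENCODE coding sequence of 129 members, none was found in 107, and 8 had no gene model under their symbol. Some models are short. Zfp850 and Zfp950, with 140 and 150 coding residues and no C2H2 finger in their models, were counted without A-box. KRAB members had a median of 11 C2H2 fingers and the others 7. Past both thresholds were 1 of 129 KRAB members (0.775%) and 8 of 107 without A-box (7.48%), beside 16.3% of genes with the same floor. The difference between the 2 classes was not tested. KRAB members had a lower median level (4.35 against 5.10 log2 CPM) and a larger median standard error of the log2FC (0.155 against 0.126). With the GC and length correction, the KRAB genes Zfp667, Zfp867 and Zfp963 passed both thresholds and Zfp316 did not. Without A-box, Zfp428, Zfp593 and Zfp950 then passed, and Zfp367, Zfp513, Zfp579 and Zfp821 did not. By adjusted p alone, 7 KRAB members were higher (5.43%) and 23 lower (17.8%), and 19 (17.8%) and 24 (22.4%) of those without A-box. Of genes with the same floor, 30.3% were higher and 24.0% lower. The median log2FC was -0.14 for KRAB members and -0.09 for those without A-box. After the GC and length correction the medians were -0.19 and 0.08, so that of members without A-box changed sign. Relative to genes with the same floor, the KRAB median lay 0.15 to 0.32 lower and the other 0.05 to 0.20 lower over all settings.

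The members were also described by finger number. Of 47 members with at least 15 fingers, none passed both thresholds by edgeR, 14 had an unadjusted p under 0.05 and 8 passed adjusted p. Of 35 members with at most 3, 4 passed both thresholds (11.4%, beside 16.3% of genes with the floor) and 17 adjusted p. This class includes 8 members without a C2H2 match in their model, among them Zfp36 with its CCCH fingers and the short models of Zfp850 and Zfp950. The shares passing adjusted p were 48.6% for at most 3 fingers, 28.2% for 4 to 9, 34.2% for 10 to 14 and 17.0% for at least 15, beside 54.3% of genes with the count floor.

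Genes listed as KRAB genes with a described role mostly did not pass the test. Of the 17 listed, 14 met the count floor, and 1 was higher (7.14%) and 2 lower (14.3%) by adjusted p. The shares were 5.43% higher and 17.8% lower among all KRAB members, and 30.3% and 24.0% among genes with the floor. No A-box was found in the translation of Zfp189, on this list, and Zfp708 had no gene model. Zfp568, which silences a placental Igf2 transcript, had 24.7 and 24.1 CPM under GSI, then 36.7 and 35.3 CPM after washout. This difference of 0.56 ± 0.11 (log2FC, adjusted p = 0.00586) exceeded the spread between replicates. Zfp169 had 23.6 and 28.8 CPM under GSI, then 11.6 and 16.1 CPM after washout, and fell by 0.94 on the log2 scale (adjusted p = 0.00897). Zfp90, described as a partner of the repressor REST, had 20.6 and 18.5 CPM under GSI, then 12.7 and 12.1 CPM after washout, and fell by 0.66 (adjusted p = 0.00879). Neither gene had overlapping conditions. The call of Zfp90 was lost without GSI replicate 1 (-0.59), and the log2FC of Zfp568 was 0.36 with total counts as the scale. Zfp445, which maintains imprints, had 175 and 201 CPM under GSI, then 213 and 197 CPM after washout, with overlapping conditions and an adjusted p of 0.374. Zfp809, which recognises the primer binding site of murine leukemia viruses, gave a log2FC of 0.23 ± 0.13 (adjusted p = 0.188). Zfp57, the other imprint regulator listed, had at most 1 count in any library and is not a member.

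More of the genes for the machinery that KRAB proteins recruit were higher than lower. Of 30 listed cofactors, 28 were tested, and 15 were higher and 2 lower by adjusted p, against 30.3% and 24.0% of genes with the floor. Their median log2FC was 0.46 and lay between 0.27 and 0.51 over all settings. With total counts as the scale, 11 were higher and 6 lower by adjusted p. Trim28 itself had 629 and 723 CPM under GSI, then 1290 and 1410 CPM after washout, a log2FC of 1.0 ± 0.14 (adjusted p = 0.00169). Setdb1 had 94.5 and 110 CPM under GSI, then 158 and 163 CPM after washout, a log2FC of 0.65 ± 0.11 (adjusted p = 0.00361). In both genes every washout library was above every GSI library. The largest rise was that of Suv39h1, a histone H3 lysine 9 methyltransferase, with 61.3 and 72.3 CPM in GSI and 162 CPM in both washout libraries. Its log2FC was 1.28 ± 0.11 (adjusted p = 0.000476). Uhrf1 and Dnmt1, which copy DNA methylation after replication, had log2FC values of 1.19 ± 0.16 and 0.98 ± 0.15. The largest fall was that of Atf7ip, a partner of Setdb1, from 155 and 149 CPM to 71.7 and 64.7 CPM (log2FC -1.16 ± 0.10, adjusted p = 0.000452). Chd3, the other listed gene that was lower, had a log2FC of -0.92 ± 0.11 (adjusted p = 0.00116). The difference between this list and the KRAB genes was not tested.

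**Figure D3:**
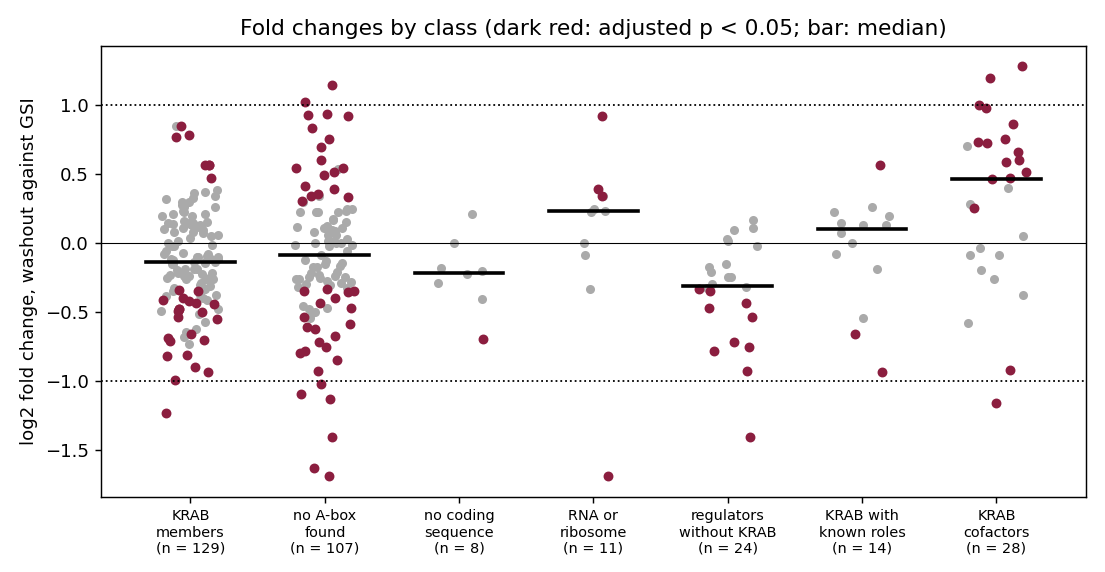
Log2FC, washout over GSI, for each Zfp gene by class and role list and, at right, for 28 KRAB cofactor genes. Dark red points passed an adjusted p of 0.05, bars are medians and dotted lines mark -1 and 1; the medians are -0.14 for KRAB genes, -0.09 for genes without A-box and 0.46 for the cofactors.

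Members with roles in RNA metabolism or ribosomes were listed next. Of the 11 listed, 3 were higher (27.3%) and 1 lower (9.09%) by adjusted p, beside 30.3% and 24.0% of genes with the floor, with a median log2FC of 0.23, which lay between 0.03 and 0.30 over all settings. Zfp593, a factor of large ribosomal subunit assembly, had 16.7 and 15.8 CPM under GSI, then 31.9 and 29.6 CPM after washout. It rose by a log2FC of 0.92 ± 0.12 (adjusted p = 0.00152), with no overlap of conditions. Zfp598, the ubiquitin ligase that senses collided ribosomes, went from 70.9 and 84.9 CPM to 99.3 and 104 CPM (0.39 ± 0.12, adjusted p = 0.0298). Zfp207, a spindle and Bub3-binding protein also tied to splicing, went from 263 and 286 CPM to 356 and 338 CPM (0.34 ± 0.10, adjusted p = 0.033). Zfp36 was the gene of this list that was lower, and Zfp871, also listed, has a KRAB A-box. Zfp106, Zfp622 and Zfp638, which bind RNA or act in ribosome maturation, had log2FC values of 0.23, 0.23 and 0.24 and did not pass. With total counts as the scale, 1 of the 11 was higher and 2 lower, and the calls of Zfp207 (0.14) and Zfp598 (0.19) were lost. Zfp207 also lost its call without either GSI replicate or washout replicate 1 (0.27 to 0.42), and Zfp598 without GSI replicate 1 (0.26) and in libraries thinned to the smallest (0.34). With the GC and length correction 5 were higher and 2 lower, and Zfp106 (0.45) and Zfp622 (0.30) passed. Zfp598 was then at 0.72. Exons of Zfp593 and Zfp106, like those of Zfp90, overlap a gene on the other strand, and those of Zfp207 a gene on the same strand, which leaves their values uncertain.

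Regulators listed as sequence-specific and without a KRAB domain formed the next list, a label that does not hold for every gene on it. Of 30 listed, 24 met the floor, and none was higher and 10 were lower (41.7%) by adjusted p in edgeR, beside 30.3% higher and 24.0% lower of genes with the floor; DESeq2 gave 0 and 8, and 13 had an unadjusted p under 0.05. Their median log2FC was -0.31. With the GC and length correction 2 were higher and 7 lower, and the median was -0.04. Without washout replicate 2, 1 was higher and 10 lower. Zfp746, on this list, scored just above the A-box threshold in its translation and is counted above among the KRAB members. Zfp217, a subunit of histone demethylase corepressor complexes, had 167 and 178 CPM under GSI, then 93.4 and 111 CPM after washout, and fell by 0.75 ± 0.12 on the log2 scale (adjusted p = 0.00275). Zfp318, required in B cells for IgD expression, went from 45.6 and 34.5 CPM to 26.5 and 19.9 CPM (-0.78 ± 0.19, adjusted p = 0.0157). Zfp503, a corepressor, went from 31.8 and 48.5 CPM to 16.3 and 26.4 CPM (-0.93 ± 0.28, adjusted p = 0.0346). The GSI and washout values of these 3 genes did not overlap. Zfp687 and Zfp644, found in chromatin repressor complexes, went from 65.1 and 86.4 to 42.7 and 49.4 CPM and from 313 and 304 to 223 and 201 CPM. Exons of Zfp687 overlap Pi4kb on the other strand, those of Zfp335 overlap Pcif1 and those of Zfp219 overlap Arhgef40. The strand setting of the counting is not given in the sources used here, so values of these genes, of 37 members in all with exons over those of a gene on the other strand, are uncertain. Zfp148, Zfp609, Zfp335 and Zfp219 also passed adjusted p, with log2FC values of -0.47, -0.43, -0.35 and -0.33, and those of Zfp335 and Zfp219 were 0.02 and 0.03 after the GC and length correction. That correction also ended the calls of Zfp609 (-0.09) and Zfp503 (-0.59) and gave -0.37 for Zfp687. Leaving out 1 library ended the call of Zfp503 for GSI replicate 2 or washout replicate 1 (both -0.58), of Zfp318 for GSI replicate 1 (-0.57), and of Zfp148 for either GSI replicate or washout replicate 2 (-0.51 to -0.26). Zfp609 lost it for GSI replicate 2 or washout replicate 1 (-0.33 and -0.32), and Zfp335 and Zfp219 for either GSI replicate or washout replicate 1, and in DESeq2.

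Levels per length spanned a wide range. By the exon lengths of the GENCODE models, the 5 members with the highest mean level per kilobase were Zfp445, Zfp740, Zfp207, Zfp706 and Zfp266. Zfp445 had 59.1 and 67.9 CPM per kilobase in GSI and 71.9 and 66.6 in washout. Zfp740 had 69.5 and 70.4 in GSI and 61.9 and 62.3 in washout, and neither of these 2 genes passed the test. The model of Zfp445 has 2961 exon bases for 986 coding residues, which leaves no untranslated part. That of Zfp740 has 4822 bases for 180 residues. The authors counted reads on another annotation, so levels per length and their ranking are uncertain. Zfp706, a small protein, had 26.8 and 28.8 CPM per kilobase in GSI and 52.6 and 45.9 in washout. Its log2FC of 0.83 ± 0.11 (adjusted p = 0.0016) exceeded the replicate spread. Zfp266, a KRAB gene, had 38.3 and 38.8 in GSI and 36.5 and 32.8 in washout, with an adjusted p of 0.25.

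Positions were found in the mm9 annotation for 236 members, of which 65 lie on chromosome 7, 25 on chromosome 17 and 22 on chromosome 13. Runs of at least 4 Zfp-numbered genes with neighbouring starts within 250 kb formed 17 clusters, which held 100 members, 78 of them KRAB genes. Cluster medians ranged from -0.39 to 0.23, and 4 clusters held members that were higher and members that were lower by adjusted p. A cluster at chr17:32908181-33531586, with 8 members of 10 genes, had the lowest median and also 2 members that were higher. Within it Zfp472 had a log2FC of 0.84 ± 0.13 (adjusted p = 0.00307) and Zfp870 one of -0.69 ± 0.25 (adjusted p = 0.0609). In the cluster at chr7:30553571-30954746, with 13 members of 14 genes, Zfp566 was highest at 0.76 ± 0.23 (adjusted p = 0.0323) and Zfp790 lowest at -0.50 ± 0.10 (adjusted p = 0.00872). Without GSI replicate 2 both calls were lost (0.57 and -0.46), and that of Zfp566 also without washout replicate 1 (0.72) or with total counts as the scale (0.56). Zfp870 passed in the GC and length correction (-0.89), with total counts as the scale (-0.89), with at least 10 counts required in every library (-0.72) and with no filter (-0.65).

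The cluster with the most Zfp genes, at chr13:67139530-67927937, held 12 members of 16 genes, all 12 with a KRAB A-box. Its log2FC values ran from -0.73 for Zfp456 (adjusted p = 0.104) to 0.23 for Zfp595 (adjusted p = 0.238), and 2 members passed, both lower. Of the transcript 50-mers of Zfp456, 13.9% also occur in other genes, most often in Rsl1, so reads may be split between similar genes. Only 1 cluster, at chr7:4866819-5005324, held a gene past both thresholds, Zfp579; none of its 6 members had a KRAB A-box. In other clusters, Zfp428 (0.93 ± 0.14, adjusted p = 0.00238), Zfp850 (0.93 ± 0.14, adjusted p = 0.00226) and Zfp771 (0.75 ± 0.14, adjusted p = 0.00494) were the highest. The lowest included Zfp667 (-0.90 ± 0.15, adjusted p = 0.00366), Zfp810 (-0.71 ± 0.13, adjusted p = 0.00566) and Zfp51 (-0.69 ± 0.16, adjusted p = 0.0138). Zfp963 was at -0.82 ± 0.22 (adjusted p = 0.0217). Of its 50-mers, 39.1% also occur in other genes, most often in the overlapping gene Gm20422, and its value is uncertain for that reason. In the same cluster Zfp869 was higher, at 0.47 ± 0.11 (adjusted p = 0.0122). Zfp963 lost its call without GSI replicate 1 (-0.71) or washout replicate 2 (-0.69) and in thinned libraries (-0.73). Zfp869 lost it without GSI replicate 2 (0.41), with total counts as the scale (0.27) and with the GC and length correction (0.21). Zfp51 lost it without GSI replicate 1 (-0.59), and Zfp850 was at 0.61 with the correction. Exons of Zfp456 and Zfp595 overlap Zfp953 on the same strand.

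**Figure D4:**
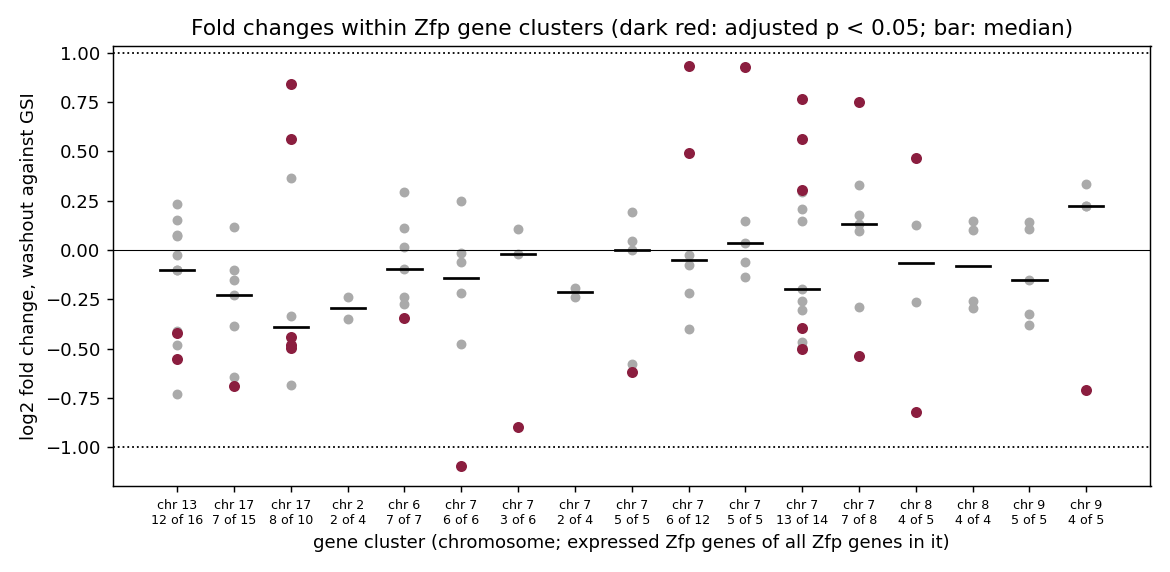
Log2FC, washout over GSI, of the 100 expressed Zfp genes that lie in the 17 clusters, 1 column per cluster, with its chromosome and the number of expressed genes among all its Zfp-numbered genes. Dark red points passed an adjusted p of 0.05 and bars are medians; medians lie between -0.39 and 0.23, and 4 clusters hold passing points on both sides of 0.

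AT-rich members were relatively higher in washout replicate 1 than in washout replicate 2. Over the 236 members with a gene model, the log2 gap between the washout replicates had a Pearson correlation of -0.56 with exon GC content, and that between the GSI replicates one of -0.17. Across members, which share the same 4 libraries, this is a description only. The members had a median GC content of 45.5%, with 43.3% for KRAB genes and 50.9% for the others. In the fifth of tested genes with the lowest GC content, the median log2FC was 0.11 over all genes and -0.10 over the 103 members in it. In the fifth with the highest, it was -0.21 over all genes and -0.04 over 36 members. After Zfp36, the widest replicate gaps were those of Zfp758, with 28.1 and 16.9 CPM under GSI, then 27.1 and 10.6 CPM after washout, and of Zfp365, with 5.29 and 2.31 CPM in washout. Neither passed the test, with adjusted p-values of 0.68 and 0.308.

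The count floor itself kept out some genes that fell to few counts after washout. Just inside it were Zfp97, with a lowest count of 20, and Zfp383 and Zfp937, each with a lowest count of 22. Their log2FC values were 0.36, -0.41 and -0.35. Just outside were Zfp296, Zfp112 and Zfp658, with lowest counts of 18, 17 and 15 and log2FC values of -0.21, 0.08 and 0.92. Of the 93 Zfp-numbered genes that missed the floor, 26 had no count in any library and 54 had at most 3 counts in each. Both GSI but not both washout libraries reached 20 counts for 4 of the 93, and the reverse held for 1. For 13, both replicate 1 libraries reached 20 counts but not both of the shallower replicate 2 libraries. The 21 that were tested included 4 past both thresholds (19.0%), all lower. Over all genes tested, 19.5% passed in either direction and 11.7% were lower. These 4 are named here after their values were seen. Zfp703, a corepressor related to Zfp503, had 143 and 68 counts in GSI and 25 and 12 in washout (log2FC -2.51 ± 0.30, adjusted p = 0.0011). Zfp467, known from fat cell differentiation, had 149 and 79 counts in GSI and 42 and 11 in washout (log2FC -2.22 ± 0.31, adjusted p = 0.00194). Zfp768 went from 18 and 11 counts to 4 and 2 but did not pass in DESeq2 or without either GSI replicate or washout replicate 1, and Zfp13 from 15 and 11 counts to 0 in both washout libraries. With all 265 tested Zfp-numbered genes, 2 were higher and 11 lower past both thresholds, at a median log2FC of -0.14.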

How the data were processed

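RNA-seq of the Beko cell line was deposited as 1 table of raw read counts per gene for 4 libraries. Per the labels and the study's methods, ribosome-depleted stranded total RNA libraries were trimmed, aligned by the authors to mm9 with HISAT2 (2.2.1), and counted per gene; the strand setting is not given in the sources used here. Those deposited counts were tested with edgeR 4.0.16 in R 4.3.3 (quasi-likelihood test, filterByExpr, TMM, no covariates, 2 replicates per condition, Benjamini-Hochberg over 12266 genes); DESeq2 1.42.0 was an alternative. CPM values are TMM-scaled. Nothing states that replicates came from separate cultures, so p-values measure the spread between these libraries. Replicates of a condition differed by more than sampling noise. The fit was tested on simulated data. Members and lists were chosen with earlier results of these data known.

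Genes were named if past both thresholds, at the 5 highest levels per length, with the widest replicate gaps, next to the count floor, extreme in a gene cluster, or as examples of the role lists. Positions, exon length, GC content and 50-mers shared between genes came from GENCODE vM1 on mm9 and promoter letters from RefSeq on GRCm38.p6, without mixing their coordinates. KRAB A-boxes were searched in translations with a profile score above 0, a choice made after the files were seen because no protein table was at hand. Genes were fitted with a scaling, filter, thinning, GC and length correction, replicate block or left-out library changed in turn. A count of 20 is 0.588 to 1.49 CPM in these libraries.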

Additional observations from a re-analysis of the deposited data

How the results depend on the processing

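Members higher and lower past both thresholds (2 and 7) numbered 1 higher with at least 10 counts in every library required or with libraries thinned to the smallest, 0 and 14 with total-count scaling, and 11 lower with every Zfp-numbered gene tested. Leaving out each library gave 2 to 5 higher and 6 to 9 lower. The 26 higher and 48 lower by adjusted p alone became 42 higher with the GC and length correction, 13 and 97 with total-count scaling, and 14 to 34 and 22 to 44 with a library left out; without GSI replicate 1 they were 14 and 23, and without GSI replicate 2 they were 16 and 22. Titles share replicate numbers 1 and 2, but nothing states a shared batch, and deviations of same-numbered libraries correlated at 0.50. With a replicate block, 41 were higher and 88 lower by adjusted p, and 56 and 85 with the GC and length correction added; the block alone raised the share passing adjusted p from 30.3% to 52.9% of members and from 54.3% to 71.1% of genes with the same floor. Under the block 7 of the listed RNA or ribosome genes were higher and 2 lower, Zfp106, Zfp622 and Zfp638 among those higher. Of the regulators listed without KRAB, 0 were higher and 16 lower under it, and 5 and 9 with the correction added. The 9 members past both thresholds were the same under the block alone. The members' median (-0.13) was -0.077 with the GC and length correction and -0.081 with the block added, -0.17 with at least 10 counts, -0.10 with no filter, -0.15 thinned, -0.33 with total count, -0.12 at a floor of 50 counts, and -0.16 to -0.10 with a library left out. The KRAB median (-0.14) was -0.19 with the GC and length correction with or without the block, -0.34 with total count and -0.18 to -0.081 with a library left out. That of members without A-box (-0.09) was 0.075 with the correction and 0.073 with the block added, -0.13 with at least 10 counts, -0.16 thinned, -0.29 with total count and -0.13 to -0.062 with a library left out. With the GC and length correction, without and with the block, the sign turned for Zfp445 (-0.021 and -0.013), Zfp335 (0.017 in both), Zfp219 (0.026 and 0.024) and Zfp809 (-0.059 and -0.041); Zfp445 was -0.072 with total count. With a library left out, Zfp326 ranged from -0.035 to 0.62, Zfp365 from -0.23 to 0.97 and Zfp758 from -1.09 to 0.26, with the sign turned for Zfp326 and Zfp365 without washout replicate 1 and for Zfp758 without GSI replicate 1 (0.19) or washout replicate 2. The cause of these shifts was not tested. Leaving out 32 members that share at least 5% of their 50-mers, an alternative chosen after seeing the data, changed no count by over 1.5 times. With 2 libraries per condition, 0.31 was the smallest size of log2FC among members that passed adjusted p.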
